A study of Mus musculus with 4 samples.

Results

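Chromatin immunoprecipitation with sequencing was examined at 7 imprinted mouse genes, Plagl1, Peg10, Sgce, Mest, Grb10, Zrsr1 and Impact. They were chosen by position, as 6 windows of mouse build mm8 that hold these genes, with Peg10 and Sgce sharing 1 window. The placement of the genes in these windows was not checked against an annotation of that build. The windows covered 1270 bins of 1 kb (2540 bins of 500 bp), of 2277147 bins of 1 kb with a read in any library. H3K4me3, H3K27me3 and H3K9me3 were measured in mouse embryonic fibroblasts (MEF) in serum-containing medium, with no strain, genotype or embryo age given in the labels. H3K9me3 was also measured in secondary MEF, which were taken at 13.5 days post coitum from chimeric embryos. These embryos had been made by injecting induced pluripotent stem cells with inducible Oct4, Klf4 and Sox2 and a selectable cassette at Oct4 into BDF2 blastocysts, and puromycin at 2 µg/ml over 48 hours selected for fibroblasts of the injected line. No doxycycline treatment is given in the labels for either source, and how many embryos or clones each came from is not given. With 1 library in each group, every difference below is between libraries and has no replicate check. H3K4me3 and H3K27me3 are reported for MEF only.

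Imprinted genes are transcribed from the copy of one parent. At the loci described here, DNA methylation laid down in the oocyte marks the maternal copy of a CpG-rich promoter, while the paternal copy stays unmethylated. On the methylated copy the zinc finger protein ZFP57 and its partner KAP1 recruit the methyltransferase SETDB1, which deposits H3K9me3, while the unmethylated copy can carry H3K4me3, the mark of active and poised promoters. A position with both marks in bulk chromatin is therefore a known feature of such promoters, but reads pooled over both copies do not show which copy carries which mark.

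The genes differ in what they encode. Plagl1 encodes a zinc finger transcription factor, Grb10 an adaptor protein that restrains growth factor signalling, and Mest a protein of the alpha/beta hydrolase family. Peg10 derives from a retrotransposon, and Sgce, which encodes epsilon-sarcoglycan, is its neighbour. Zrsr1 is a retrogene related to a splicing factor and lies inside an intron of Commd1. Impact encodes a regulator of the translational stress response. Grb10 is expressed mainly from the maternal copy in most tissues, and the others from the paternal copy.

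RefSeq promoter sequences matched 4 of the 7 genes, Plagl1, Mest, Grb10 and Zrsr1. The 250 bases before the annotated start are shown for those genes, with CpG dinucleotides, the sites of DNA methylation, in capitals. Mest and Grb10 have alternative starts. For Mest the CpG-richer one is given, and for Grb10 both are. DNA methylation was not measured here, so no start is marked as the methylated one. Coordinates are on GRCm38.p6, a different build from the read positions, so no sequence is placed on a particular bin below.
Plagl1, chr10:13090582-13090831, plus strand: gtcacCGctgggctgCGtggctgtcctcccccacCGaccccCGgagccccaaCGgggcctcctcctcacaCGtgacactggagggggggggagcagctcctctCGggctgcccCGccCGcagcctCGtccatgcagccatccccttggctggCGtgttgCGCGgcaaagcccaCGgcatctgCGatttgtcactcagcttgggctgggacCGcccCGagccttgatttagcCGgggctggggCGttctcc
Mest, downstream start, chr6:30737800-30738049, plus strand: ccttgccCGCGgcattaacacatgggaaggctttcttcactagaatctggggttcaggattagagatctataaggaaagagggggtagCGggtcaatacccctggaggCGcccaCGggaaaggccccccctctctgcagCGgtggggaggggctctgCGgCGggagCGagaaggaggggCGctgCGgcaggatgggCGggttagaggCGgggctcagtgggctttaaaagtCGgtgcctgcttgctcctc
Grb10, upstream start, chr11:12037421-12037670, minus strand: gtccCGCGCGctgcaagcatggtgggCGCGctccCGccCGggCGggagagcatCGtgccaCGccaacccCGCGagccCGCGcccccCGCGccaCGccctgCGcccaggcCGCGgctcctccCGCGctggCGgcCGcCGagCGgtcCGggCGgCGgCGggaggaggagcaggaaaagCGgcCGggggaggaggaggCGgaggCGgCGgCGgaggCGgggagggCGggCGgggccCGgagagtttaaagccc
Grb10, downstream start, chr11:12027972-12028221, minus strand: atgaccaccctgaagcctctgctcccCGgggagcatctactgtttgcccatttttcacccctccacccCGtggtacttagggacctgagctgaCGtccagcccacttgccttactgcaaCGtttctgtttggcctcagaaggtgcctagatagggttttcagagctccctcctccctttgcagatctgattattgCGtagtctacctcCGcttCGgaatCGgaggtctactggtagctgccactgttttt
Zrsr1, chr11:22971755-22972004, plus strand: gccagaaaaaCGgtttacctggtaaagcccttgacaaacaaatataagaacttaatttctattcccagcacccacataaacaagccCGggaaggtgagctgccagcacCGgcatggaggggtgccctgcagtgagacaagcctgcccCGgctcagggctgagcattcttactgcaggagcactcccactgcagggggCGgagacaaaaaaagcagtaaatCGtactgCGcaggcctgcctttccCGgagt
CpG content differed widely among these starts. The upstream Grb10 start held 40 CpGs and the downstream one 8, Plagl1 held 19, the downstream Mest start 14 and Zrsr1 8. Over 32851 RefSeq promoters of the same length the median was 6 and the 90th percentile 25. The letters TGCCGC, the core motif of ZFP57, were searched on both strands. They were found 2 times before the downstream Mest start and 1 time before Plagl1, and not before the Grb10 and Zrsr1 starts. Of all promoters of that length, 8.68% held the letters. Bases outside these 250 were neither counted nor searched.

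Levels are reads per bin as fold over the mean of the same library. A call required at least 2-fold and a one-sided Poisson value under 0.001 after Benjamini-Hochberg adjustment over all bins. In 1 kb bins this took at least 17 reads for H3K4me3 and 15 for H3K27me3. The H3K9me3 libraries needed 15 reads in MEF (4.16-fold) and 14 in secondary MEF (4.34-fold). The mean bin held 3.23 to 4.95 reads. Intervals are Poisson or Clopper-Pearson at the 95% level and cover counting error only. Input libraries were not used here, no gene annotation on mm8 was used here, and the fibroblast identity of the cells was not checked against marker genes.

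H3K4me3 and H3K9me3 coincided in every one of the 6 windows. A bin called for MEF H3K4me3 and for H3K9me3 in both cell sources is named coincident. How many other genome windows of such length hold a coincident bin was not counted, so the 6 of 6 only describes these windows. H3K4me3 was called in 64 of the 1270 bins (5.04%, against 3.29% of all bins), and 11 of the 64 (17.2%) were coincident. Across the genome 7.14% of H3K4me3-called bins were coincident, and 0.235% of all bins. The Impact and Peg10/Sgce windows held 3 coincident bins each, Mest 2, and Plagl1, Grb10 and Zrsr1 1 each. Counted as runs of adjacent bins, 7 of 27 H3K4me3 regions (25.9%) held a coincident bin, against 12.2% of the 36005 regions of the genome. There was 1 such region in each window, and a further one in the Impact window. Leaving out bins with under 50% of their H3K4me3 reads at distinct positions, which removed that further region, left 10 of 63 H3K4me3-called bins coincident (15.9%), against 7.12% genome-wide, a step chosen after seeing the data. In 500 bp bins, 10 of 96 H3K4me3-called bins (10.4%) were coincident, against 3.51% across the genome, and Mest held none of them.

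**Figure D1:**
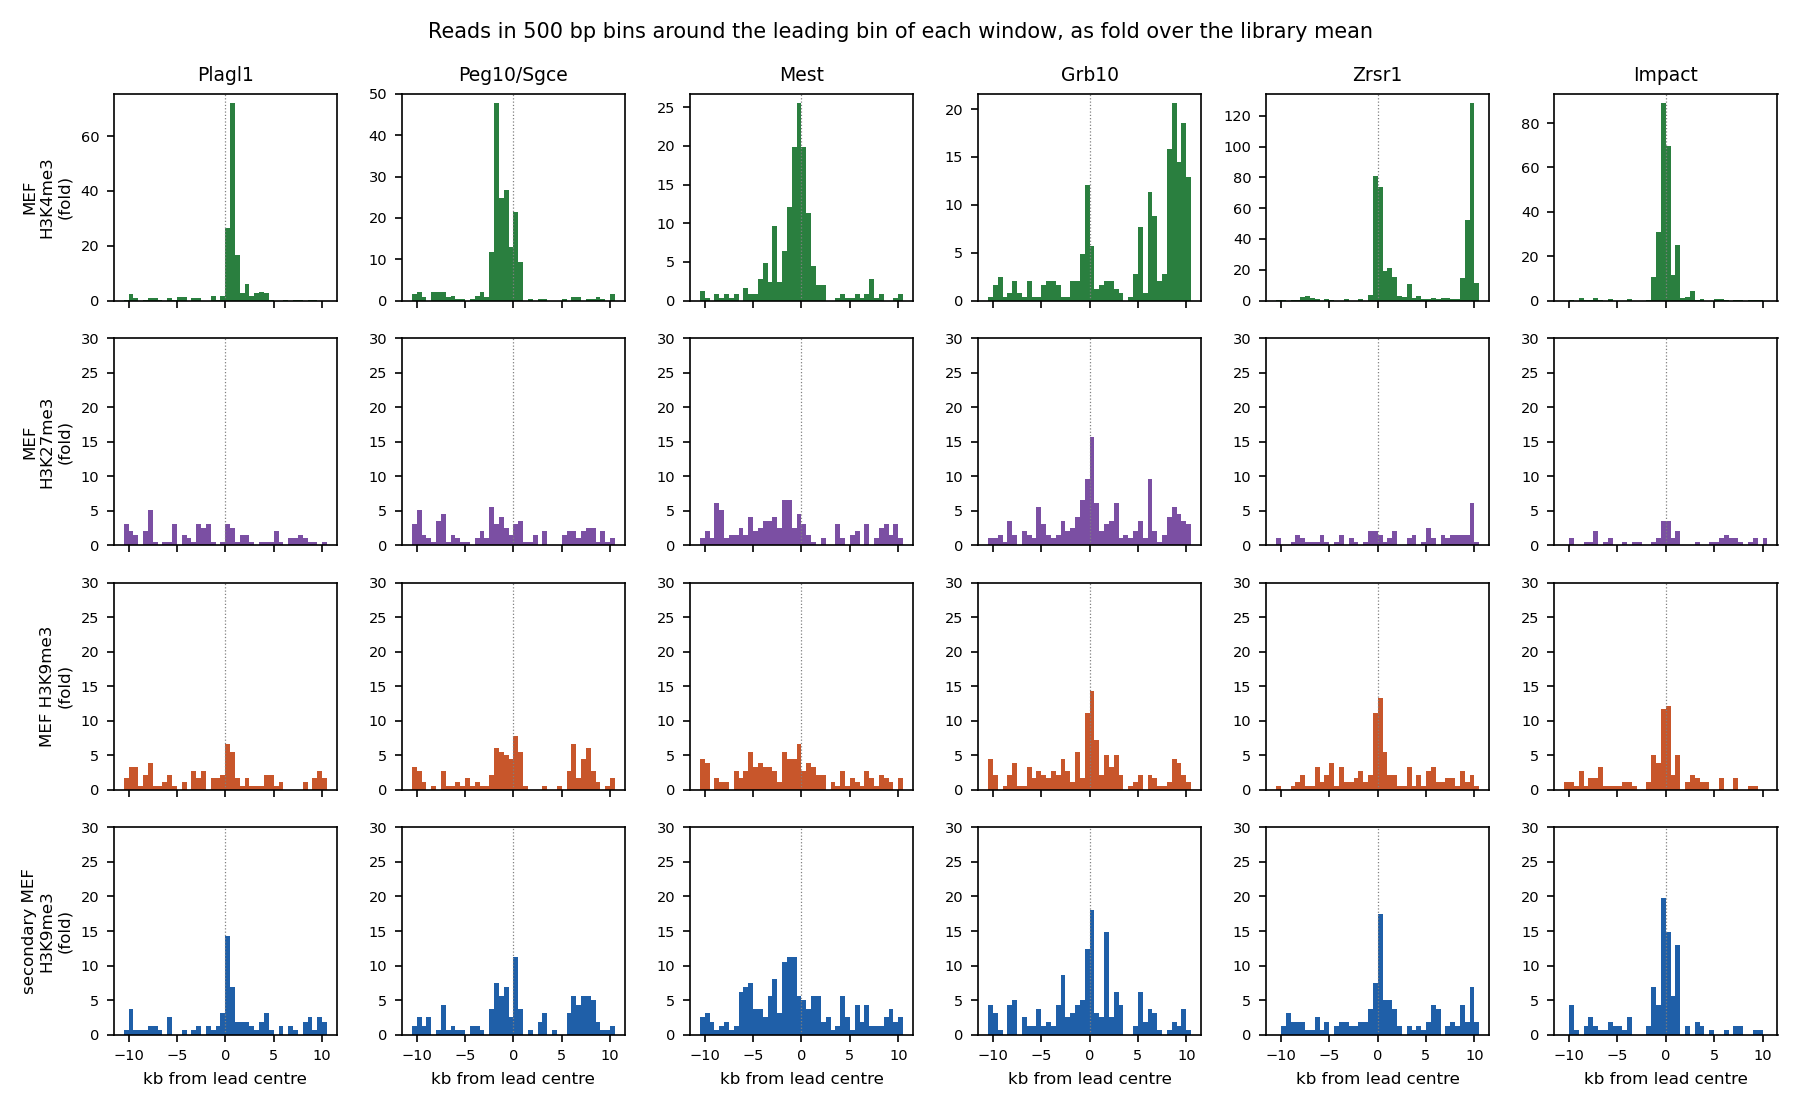
Fold over the library mean in 500 bp bins (vertical axes, starting at 0) by distance in kb from the centre of the leading bin (horizontal axes). Columns are the 6 windows and rows the 4 libraries, with 1 library per row, and the H3K4me3 axes differ between windows. H3K9me3 and H3K4me3 rise together near the centre of the columns, with H3K4me3 highest 2000 bp from the H3K9me3 summits in Peg10/Sgce, while the H3K4me3 peaks at the right of the Grb10 and Zrsr1 columns have less.

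In each window the coincident bin with the highest smallest fold of the 3 libraries was taken as the leading bin. Because H3K9me3 entered that choice, the values below describe the bins and test nothing.

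Zrsr1 combined strong H3K4me3 with strong H3K9me3 and little H3K27me3. Its leading bin, chromosome 11 from 22872001 to 22873000, held 382 H3K4me3 reads, 44 MEF H3K9me3 reads, 40 secondary MEF H3K9me3 reads and 7 H3K27me3 reads. These equal 77.2-fold (69.6 to 85.3), 12.2-fold (8.88 to 16.4), 12.4-fold (8.85 to 16.9) and 1.77-fold (0.712 to 3.65). Both H3K9me3 libraries were high here, and the H3K27me3 interval reached below the library mean. The next bin, from 22873001, fell 1 read short of the MEF H3K9me3 call with 14 reads, and it was called in secondary MEF with 16.

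Impact also combined strong H3K4me3 with strong H3K9me3. Its leading bin, chromosome 18 from 13116001 to 13117000, held 393 H3K4me3 reads (79.4-fold, 71.8 to 87.7). H3K9me3 stood at 43 reads in MEF (11.9-fold, 8.64 to 16.1) and at 56 in secondary MEF (17.4-fold, 13.1 to 22.5). H3K27me3, at 14 reads (3.54-fold, 1.94 to 5.94), lay above the library mean and 1 read under its call. The H3K4me3 region was 3 kb long, all 3 of its bins were called for secondary MEF H3K9me3, and 2 were for MEF H3K9me3.

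The Grb10 leading bin had the highest H3K27me3 of the 6 leading bins. Its leading bin, chromosome 11 from 11926001 to 11927000, held 44 H3K4me3 reads (8.89-fold, 6.46 to 11.9), the lowest H3K4me3 of the 6 leading bins. H3K9me3 stood at 46 reads in MEF (12.8-fold, 9.35 to 17.0) and 49 in secondary MEF (15.2-fold, 11.2 to 20.1). H3K27me3, laid down by Polycomb repressive complex 2, stood at 50 reads, or 12.6-fold (9.39 to 16.7). All 3 marks were thus called in this 1 kb, with H3K27me3 and H3K9me3 at similar fold.

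Peg10 and Sgce shared a 4 kb H3K4me3 region, from 4696001 to 4700000 on chromosome 6, the only one in their window. Its leading bin, from 4698001 to 4699000, held 85 H3K4me3 reads (17.2-fold, 13.7 to 21.2), with 22 reads in each H3K9me3 library (6.11-fold, 3.83 to 9.25, in MEF and 6.82-fold, 4.27 to 10.3, in secondary MEF). H3K27me3 there was 9 reads (2.28-fold, 1.04 to 4.32). The adjoining bins from 4696001 and 4697001 were coincident too, at 4.16-fold and 5.27-fold in MEF H3K9me3 and at 5.58-fold and 6.20-fold in secondary MEF. H3K27me3 was called in the first of them, with 17 reads (4.30-fold), and stood at 3.29-fold in the second. H3K9me3 was thus spread along most of this region.

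Within its H3K4me3 region, Plagl1 had its highest H3K9me3 in the first bin, though MEF counts separated it little from the adjoining bin. The leading bin, chromosome 10 from 12780001 to 12781000, held 69 H3K4me3 reads (13.9-fold, 10.8 to 17.6), 16 MEF H3K9me3 reads (4.44-fold, 2.54 to 7.21), 28 secondary MEF H3K9me3 reads (8.68-fold, 5.76 to 12.5) and 7 H3K27me3 reads (1.77-fold, 0.712 to 3.65). The adjoining bin, from 12781001, held the top of the H3K4me3 region at 44.3-fold. There MEF H3K9me3, with 13 reads (3.61-fold), missed the call by 2 reads, and secondary MEF H3K9me3, with 14 (4.34-fold), was called. Plagl1 therefore passed by a narrow margin in MEF. MEF H3K9me3 was as high in window bins without an H3K4me3 call, with 17 reads from 12751001 (15.7-fold H3K27me3) and 16 from 12817001. Secondary MEF held 8 and 10 H3K9me3 reads there, neither called.

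Mest had the broadest H3K9me3 of the 6 windows, counted at 2-fold, below the call, and a low level in its leading bin. Its H3K4me3 region spanned 6 kb, from 30684001 to 30690000 on chromosome 6, and H3K9me3 at 2-fold or more ran over 9 kb around the leading bin in each library, against 2 to 7 kb in the other windows. The leading bin, from 30688001 to 30689000, held 112 H3K4me3 reads (22.6-fold, 18.6 to 27.2) with 17 reads in each H3K9me3 library (4.72-fold, 2.75 to 7.56, in MEF and 5.27-fold, 3.07 to 8.43, in secondary MEF). In the preceding bin, from 30687001, secondary MEF H3K9me3 reached 36 reads (11.2-fold) while MEF H3K9me3 had 16 (4.44-fold). H3K27me3 was called in 4 of the 6 bins and stood at 3.79-fold (2.12 to 6.26) in the leading one, close to H3K9me3. H3K27me3 at 2-fold or more ran over 7 kb around that bin.

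**Figure D2:**
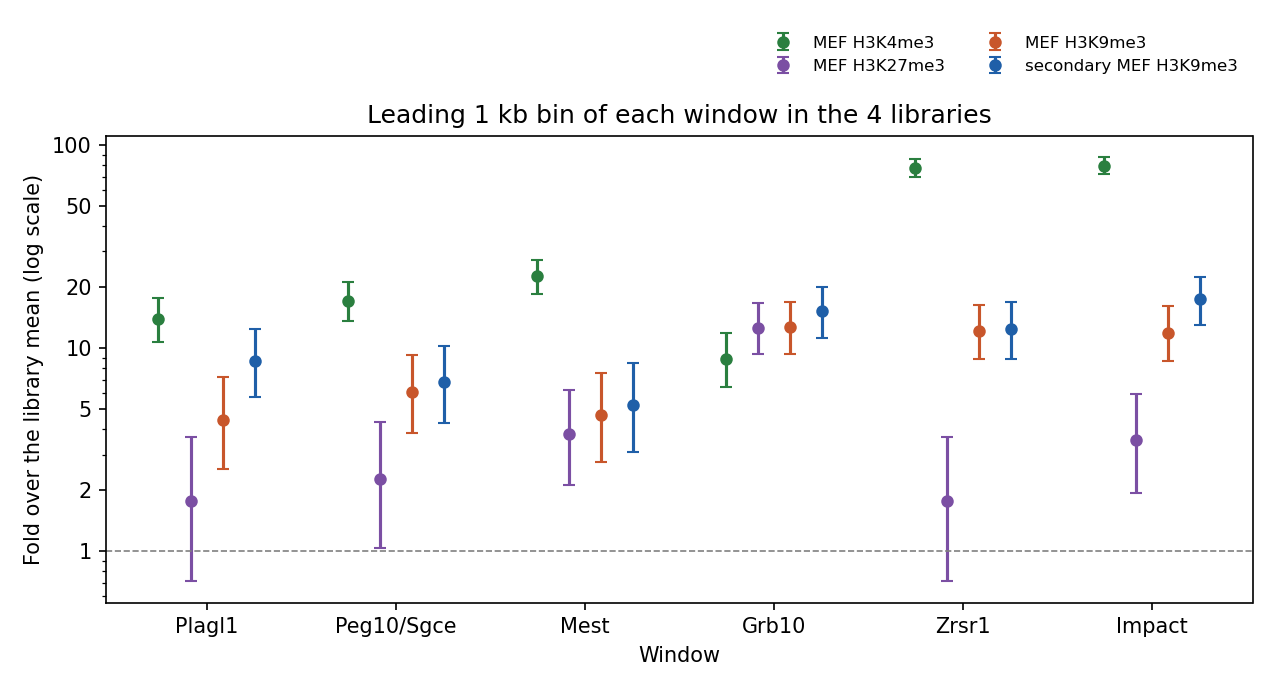
Fold over the library mean (log axis) in the leading 1 kb bin of each window, with 95% Poisson intervals as bars. Colours are the 4 libraries, 1 each, and the dashed line is the library mean. Both H3K9me3 points lie above the H3K27me3 point in every window, with bars apart for both H3K9me3 libraries in Zrsr1 and Impact and overlapping for at least 1 of them elsewhere.

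H3K9me3 reads are raised over strong H3K4me3 across the genome, so each leading bin was placed among all bins of its own H3K4me3 class. Leading bins were picked with H3K9me3 and the bins of the class were not, so small shares were partly fixed in advance. Among 11939 bins at 40-fold H3K4me3 or more, the median was 2.78-fold MEF H3K9me3 and 4.34-fold secondary MEF H3K9me3, and 13.8% were coincident. Of those bins 20 (0.168%) reached the Zrsr1 bin in both H3K9me3 libraries, itself included, and 20 (0.168%) the Impact bin. Grb10 was reached by 56 of 19982 bins (0.280%) of 5-fold to 10-fold H3K4me3, where 6.12% were coincident. Plagl1 and Peg10/Sgce were reached by 1.49% and 2.13% of the 10464 bins of 10-fold to 20-fold, where 7.93% were coincident. Mest was reached by 4.74% of the 9031 bins of 20-fold to 40-fold, where 7.83% were coincident. That 4.74% was the largest joint share of the 6 leading bins. In MEF H3K9me3 alone Plagl1 was reached by 12.4% of its class and Mest by 9.54%. In secondary MEF H3K9me3 alone these shares were 1.84% and 10.8%.

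**Figure D3:**
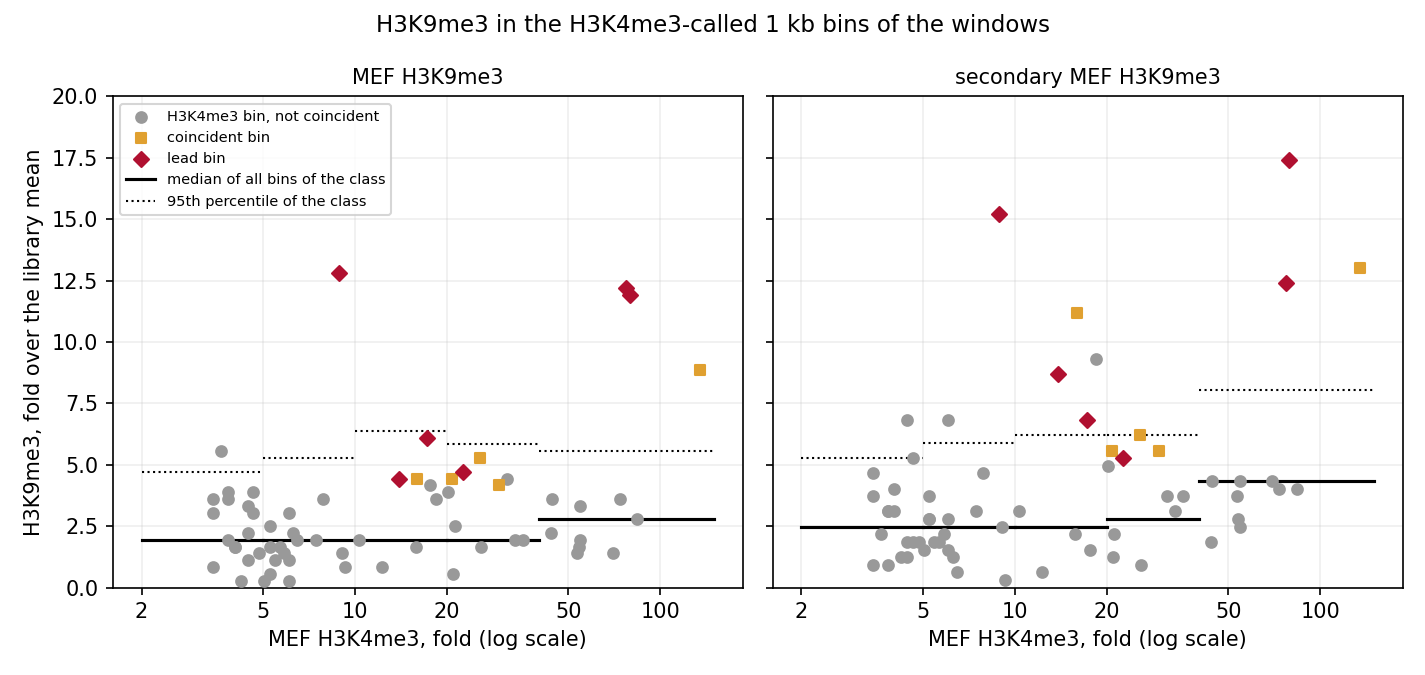
Each point is 1 of the 64 H3K4me3-called 1 kb bins of the windows, by MEF H3K4me3 fold (log axis) and by H3K9me3 fold in MEF (left) or secondary MEF (right). Solid and dotted lines give the median and the 95th percentile of all genome bins in each H3K4me3 class. The leading bins of Grb10, Zrsr1 and Impact lie above the dotted line in both panels, and that of Mest lies below it in both.

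Other H3K4me3 regions of the same windows were set beside the leading bins. Leading bins were chosen with H3K9me3, and regions without a coincident bin lack, by definition, an H3K4me3 bin called in both H3K9me3 libraries. Lower H3K9me3 in these regions was thus partly fixed in advance, and the values here and below are descriptive. Of the 20 regions without a coincident bin, 9 had a top bin of 20-fold H3K4me3 or more, from 31.5-fold to 83.9-fold. At those top bins MEF H3K9me3 lay between 1.39-fold and 4.44-fold and secondary MEF H3K9me3 between 2.48-fold and 4.34-fold. A bin was called for MEF H3K9me3 in 1 of these 9 regions and for secondary MEF H3K9me3 in 2 of them. Among the 9319 such regions of the genome these shares were 9.59% and 45.9%.

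Zrsr1 gave the closest match in H3K4me3. A bin 18 kb away, from 22890001, held 415 H3K4me3 reads against 382, but 10 MEF H3K9me3 reads against 44 (leading over other bin 4.40, 2.18 to 9.81) and 13 secondary MEF reads against 40 (3.08, 1.61 to 6.27). In the Impact window the strongest other bin, 32 kb before the leading one, held 12 MEF H3K9me3 reads against 43 (3.58, 1.86 to 7.46) and 8 secondary MEF reads against 56 (7.0, 3.32 to 17.0), with 270 H3K4me3 reads against 393. In the Grb10 window a 9 kb region from 11931001 to 11940000 held the stronger H3K4me3, 156 reads in its top bin against 44. MEF H3K9me3 was 16 reads there against 46 (2.88, 1.60 to 5.44) and secondary MEF H3K9me3 12 against 49 (4.08, 2.14 to 8.43). H3K27me3 did not separate these 2 Grb10 bins, with 37 reads against 50 (1.35, 0.866 to 2.13).

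Plagl1 and Mest had smaller ratios. For Plagl1 against a bin 103 kb away with 364 H3K4me3 reads, the ratio was 1.23 (0.555 to 2.78) in MEF H3K9me3 and 2.15 (1.08 to 4.53) in secondary MEF. For Mest against a bin 45 kb before it with 176 H3K4me3 reads, the ratios were 2.43 (0.957 to 6.93) and 1.42 (0.638 to 3.25). Of these 4 intervals only that of Plagl1 in secondary MEF excluded 1. None of the intervals accounts for the choice of the leading bins by H3K9me3. These comparison bins were the strongest H3K4me3 bins outside the leading region with at least 50% of their reads at distinct positions, a condition added after the values were seen.

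That condition left out the second coincident region of the Impact window, a single bin from 13092001 to 13093000. It held 669 H3K4me3 reads (135-fold), but at only 50 distinct positions. H3K27me3 was raised there as well, with 57 reads (14.4-fold), beside 32 MEF H3K9me3 reads (8.88-fold) and 42 secondary MEF H3K9me3 reads (13.0-fold). This bin was high in all 4 libraries, unlike the leading Impact bin, where 393 H3K4me3 reads lay at 330 distinct positions.

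H3K27me3 was not used to define coincidence. It was called in 35 of the 1270 bins (2.76%, against 4.33% of all bins) and in 5 of the 11 coincident bins (45.5%). Genome-wide it was called in 69.0% of the 5342 coincident bins and in 20.8% of H3K4me3-called bins. Both H3K9me3 libraries stood at least 2-fold above H3K27me3 in 5 of the 11 bins (45.5%), against 16.4% of coincident bins genome-wide. As a share of H3K4me3-called bins this was 7.81% in the windows and 1.17% genome-wide. Those 5 were the leading bins of Plagl1, Peg10/Sgce, Zrsr1 and Impact, and the Impact bin from 13115001. None were in the Grb10 or Mest windows.

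The positions of the marks within the coincident regions were compared by the 500 bp bin with the most reads within 3 kb either side of the leading bin. MEF H3K9me3 and H3K4me3 summits were at most 500 bp apart in Plagl1, Mest, Grb10, Zrsr1 and Impact. For secondary MEF H3K9me3 the distance was 1000 bp in Mest and at most 500 bp in Plagl1, Grb10, Zrsr1 and Impact. In 250 bp steps it was 750 bp for both H3K9me3 libraries in Grb10 and for secondary MEF in Mest. In Peg10/Sgce the H3K4me3 summit, with 118 reads, lay 2000 bp from the summit of both H3K9me3 libraries, with 14 and 18 reads. Without the shift of the reads, the distance was 0 bp for secondary MEF and still 2000 bp for MEF. The H3K9me3 libraries had the same summit bin in Plagl1, Peg10/Sgce, Grb10 and Zrsr1, and differed by 500 bp in Impact and 1000 bp in Mest. These summits rest on 12 to 26 reads in MEF and 18 to 32 in secondary MEF. In Mest the bins from 30687001 and 30687501 tied at 18 secondary MEF reads, and the first was taken. The second lies nearer to the H3K4me3 and MEF H3K9me3 summits, so the 1000 bp distances in Mest depend on that choice.

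H3K9me3 was also called in bins of the windows without H3K4me3. Of the 1270 bins, 34 (2.68%) were called in MEF and 41 (3.23%) in secondary MEF, against 1.65% and 1.70% of all bins. Both libraries were called in 18 bins, of which 7 had no H3K4me3 call. The genome-wide share of such bins is not given here, so these counts only describe the windows. In the Peg10/Sgce window a cluster of H3K9me3-called bins lay 6 to 8 kb after the leading bin. There the bins from 4704001 and 4706001 held 17 and 16 MEF reads (4.72-fold and 4.44-fold) and 14 and 17 secondary MEF reads (4.34-fold and 5.27-fold), with 2 H3K4me3 reads in each. In the Grb10 window the bin from 11928001, 2 kb after the leading bin, held 15 MEF and 28 secondary MEF reads (4.16-fold and 8.68-fold). In the Mest window the bin from 30683001, 5 kb before the leading bin, held 16 and 18 reads (4.44-fold and 5.58-fold). The rest lay far from the leading bins. In Mest the bin from 30593001, 95 kb before, held 16 and 14 reads, and that from 30735001, 47 kb after, 22 and 15. In Grb10 the bin from 11837001, 89 kb before, held 18 and 17.

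The comparison of cell sources asked whether H3K9me3 at these loci differed between secondary and ordinary MEF. At the leading bins the ratio of read shares, secondary over ordinary, was 1.01 (0.644 to 1.59) for Zrsr1, 1.12 (0.589 to 2.11) for Peg10/Sgce, 1.12 (0.536 to 2.33) for Mest, 1.19 (0.779 to 1.82) for Grb10 and 1.45 (0.959 to 2.22) for Impact. Each of these intervals included 1. The choice of leading bins by their smallest fold favours bins where both H3K9me3 libraries are high, so these ratios cannot test agreement. In Mest it passed over the preceding bin, with 36 secondary MEF reads against 16 in MEF. For Plagl1 the ratio was 1.95 (1.02 to 3.86), from 28 and 16 reads. Over 3 kb around the leading bin, the intervals of Mest (1.65, 1.12 to 2.45) and Impact (1.61, 1.18 to 2.21) excluded 1, and that of Plagl1 (1.43, 0.902 to 2.30) did not. Whole windows ranged from 0.866 (0.791 to 0.947) for Plagl1 to 1.21 (1.11 to 1.33) for Mest, and chromosomes 6, 10, 11 and 18 from 0.980 to 1.01. Differences smaller than these intervals allow were not detectable at this depth, and cell source and flow cell cannot be told apart.

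**Figure D4:**
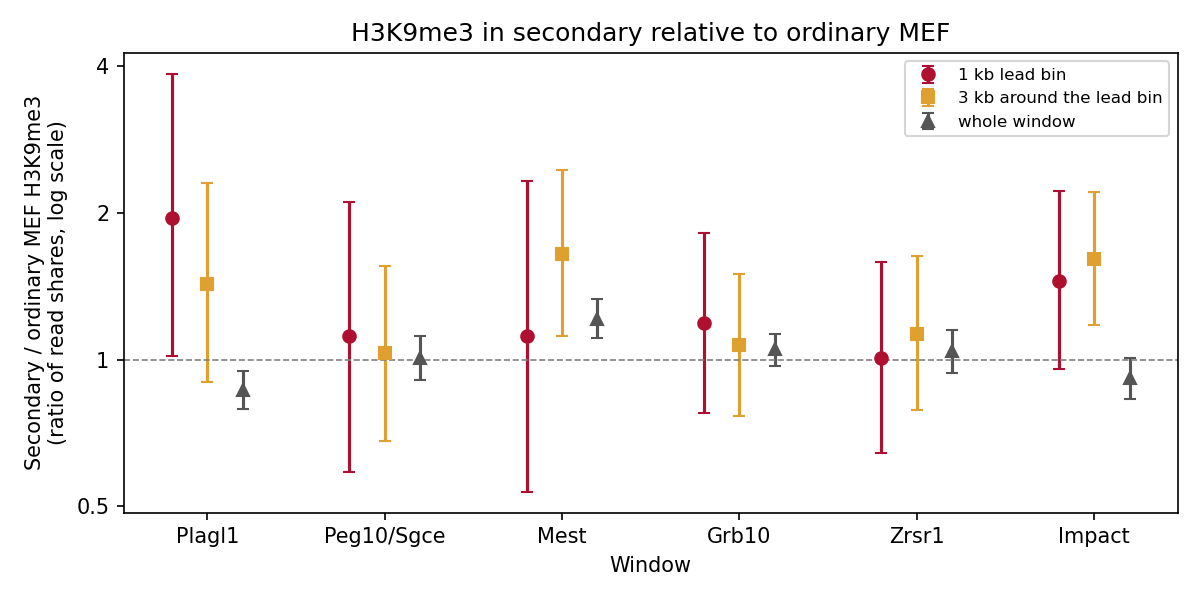
Ratio of H3K9me3 read shares, secondary over ordinary MEF (log axis), for the leading bin, the 3 kb around it and the whole window, with 95% Clopper-Pearson intervals from 1 library each. The dashed line marks equal shares. The intervals of the leading bins include 1 except that of Plagl1.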

How the data were processed

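The deposited files list the positions of aligned reads, signed by strand and not normalised. Bowtie was used by the authors for alignment to mm8, per the file headers (-e 70, -k 2, -m 2, -n 2, -l 36, --best, --concise), and the version is not given in the sources used here. Reads with 1 location were the measurement, and reads with 2 locations entered only an alternative. Per the labels, libraries had 18 PCR cycles and a gel selection of 150 to 350 bp. The libraries held 12244976 (MEF H3K4me3), 9783343 (MEF H3K27me3), 8912579 (MEF H3K9me3) and 7986294 (secondary MEF H3K9me3) such reads, of which 91.4% to 98.0% were at distinct positions. Per the labels, 1 flow cell was used for all MEF libraries and a different one for secondary MEF.

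Each read was moved 75 bp from its 5' end, with 36 bases assumed, and counted on chromosomes 1 to 19, X and Y. Listed positions were taken as the leftmost base. The mean used 494868 bins of 5 kb with a read in any library. Poisson values were adjusted over all 1 kb or 500 bp bins with a read. The calls were tested on simulated data. These were Poisson counts around the means of the H3K4me3 and H3K9me3 libraries, the background that the call assumes. They cannot show how often real bins are called falsely. All 7 genes are named, each window has 1 leading bin by the rule given in the text, and every H3K4me3 region was counted. The windows and rules were chosen with earlier results of these data known. Other imprinted loci were planned but not located, since an mm8 annotation was not used here. Python 3.11.15, NumPy 2.4.6 and SciPy 1.17.1 were used.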

Additional observations from a re-analysis of the deposited data

Results flagged for a closer look

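Reads with 2 locations in the genome, listed at both and left out of the main counts, were present near some leading bins at more than the 3 reads that a count of 0 allows. In the 3 kb around the leading Impact bin there were 162 such listings for MEF H3K4me3, and 26 in each of the MEF and secondary MEF H3K9me3 libraries, beside 587, 72 and 104 reads with 1 location. In the Peg10/Sgce window there were 8 for MEF H3K4me3, beside 235. With these listings at a weight of 0.5 the Impact window held 4 kb of coincident bins in place of 3 kb. Where the second locations lie was not tested.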

How the results depend on the processing

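Of 100 values recomputed under other settings, 96 stayed within counting error, within 1.5 times for counts, or within 500 bp for summit distances. These limits are wide, and a fall from 6 windows to 4 counted as staying. All settings use the same reads, so the share does not measure how well the results would repeat. The number of windows with a coincident bin was 6 under all but 3 of the 8 other settings of the call. It was 5 in 500 bp bins (without Mest), 4 at 3-fold and an adjusted value under 1e-06 (without Plagl1 and Mest), and 4 where both H3K9me3 libraries had also to stand 2-fold above H3K27me3 (without Mest and Grb10). The coincident length of 11 kb fell to 5 kb under each of these 3. As shares of H3K4me3-called bins, the last 2 gave 9.26% in the windows against 2.57% genome-wide and 7.81% against 1.17%. Without bins of few distinct H3K4me3 positions it was 10 kb in 6 windows. Without a shift the distance from the H3K4me3 summit to the secondary MEF H3K9me3 summit in Peg10/Sgce was 0 bp in place of 2000 bp, and the cause was not tested. Without a shift or with 100 bp, the leading bin was no longer coincident in 1 of the 6 windows, though another bin of that window was. No paired analysis was possible because each group held 1 library. Depth limits these data most at Plagl1 and Mest, whose calls rest on 16 and 17 MEF H3K9me3 reads.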
